A study of Mus musculus with 30 samples.

Results

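The Del(CBS1-4) allele, in which CTCF binding sites (CBS) 1 to 4 of the mouse HoxD cluster were mutated on the same chromosome, was compared with wild type (WT) in every deposited library that carries either label, separately for CTCF and for RAD21. This took 11 of the 30 libraries of the study: 3 WT and 2 Del(CBS1-4) libraries for CTCF, and 4 WT and 2 Del(CBS1-4) libraries for RAD21. All came from the trunk of B6CBAF1 mouse embryos at E10.5 (embryonic day). The mutants were homozygous embryos obtained from crosses between carriers, and the WT embryos were described as littermate controls. The same WT libraries serve every allele of the study, and their labels name no litter. Whether any WT embryo was a littermate of a Del(CBS1-4) embryo is therefore not known. Embryos were dissociated one at a time, so libraries were taken as separate embryos, and the trunk holds many cell types, so that fewer bound cells and weaker binding per cell could not be told apart. The method was ChIPmentation, an immunoprecipitation of formaldehyde-fixed chromatin in which Tn5 transposase adds the sequencing adapters on the beads.

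CTCF is a zinc-finger protein that binds an asymmetric DNA motif and halts cohesin, the ring complex that extrudes chromatin loops; RAD21 is the subunit that closes this ring, and its peaks mark where cohesin comes to rest. The HoxD cluster holds the Hoxd genes, which encode transcription factors that give positional identity along the trunk and in the limbs, and in the trunk they are switched on one after another from Hoxd1 at the telomeric end towards Hoxd13. Evx2, a neighbouring homeobox gene, lies beyond Hoxd13 on the centromeric side.

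The lists held 52885, 57203 and 74938 peaks on the main chromosomes in the WT CTCF libraries and 50445 and 55829 in the Del(CBS1-4) ones; for RAD21 they held 22406, 39746, 32433 and 34169 in WT and 37031 and 41097 in Del(CBS1-4). Read depth was unknown, so list lengths describe only how much was called. A reference site was a position with a peak in every WT library of an antibody (47658 for CTCF and 20061 for RAD21), and a common site a reference site with a peak in both Del(CBS1-4) libraries as well (39095 and 19586). At common CTCF sites the median fold enrichment, the height of a summit over the local background of its own library, was 10.9, 8.05 and 9.93 in WT and 6.59 and 6.56 in Del(CBS1-4). The mutant CTCF libraries thus stood below every WT library across the genome, and 21.7% and 24.8% of their entries shared an interval with another summit, against 6.26% to 10.7% in WT. For RAD21 the 2 mutant medians (7.54 and 7.57) lay inside the WT range (7.25 to 9.58). Levels are therefore given below as percentiles, the rank of a site's fold enrichment among the common sites of the same library, with 0 where a library had no peak.

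The mutated positions were placed by their detection pattern over all 14 CTCF libraries of the study: CBS1 at chr2:74715933 in Hoxd3 and its antisense transcript Hoxd3os1, CBS2 at chr2:74702390, 613 bp from Gm38462, CBS3 at chr2:74694237 and CBS4 at chr2:74691779, both in Hoxd10, and CBS5, which this allele keeps, at chr2:74686497 in the span shared by Hoxd11 and Hoxd10 (mm10, positions counted from 1). This placement had 5 library calls off pattern and the next best had 7. Since CTCF detection chose these positions, CTCF loss at CBS1 to CBS4 is a description; the RAD21 lists were not used for the placement.

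Of the 5 positions, CBS4 fell inside a RefSeq promoter window (250 bases before to 50 after a transcription start), that of Hoxd10, and a second HoxD window, that of Hoxd3os1, held the CTCF summits that both mutant libraries had beside CBS1. Both are printed because the HoxD results turn on them, followed by the windows of Tlr6 and Gm13286, where the strongest CTCF sites that were lost outside HoxD in a promoter window lay. All are from RefSeq on GRCm38.p6 (mm10), 5′ to 3′ on the strand of the gene. Capitals mark 21 bases centred on the median WT summit in Hoxd10, Tlr6 and Gm13286, and the motif matches in Hoxd3os1.
Hoxd10, chr2:74691641-74691940, plus strand: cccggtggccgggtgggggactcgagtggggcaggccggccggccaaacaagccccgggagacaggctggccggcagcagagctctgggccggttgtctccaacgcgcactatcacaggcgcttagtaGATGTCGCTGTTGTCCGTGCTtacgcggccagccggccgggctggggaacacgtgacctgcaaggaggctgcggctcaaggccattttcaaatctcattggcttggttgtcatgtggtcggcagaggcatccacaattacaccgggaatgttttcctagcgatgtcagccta
Hoxd3os1, chr2:74716081-74716380, minus strand: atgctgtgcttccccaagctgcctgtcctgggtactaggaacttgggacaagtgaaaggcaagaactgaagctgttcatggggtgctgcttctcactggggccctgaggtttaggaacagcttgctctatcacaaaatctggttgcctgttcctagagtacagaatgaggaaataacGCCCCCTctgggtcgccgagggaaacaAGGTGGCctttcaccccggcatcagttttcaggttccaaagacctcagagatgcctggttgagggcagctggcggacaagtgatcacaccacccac
Tlr6, chr5:64959999-64960298, minus strand: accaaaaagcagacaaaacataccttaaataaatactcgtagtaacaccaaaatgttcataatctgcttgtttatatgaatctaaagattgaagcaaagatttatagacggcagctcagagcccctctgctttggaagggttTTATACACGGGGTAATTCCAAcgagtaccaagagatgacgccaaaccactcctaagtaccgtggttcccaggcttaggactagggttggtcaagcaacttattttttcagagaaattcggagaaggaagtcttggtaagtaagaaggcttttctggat
Gm13286, chr4:88757594-88757893, plus strand: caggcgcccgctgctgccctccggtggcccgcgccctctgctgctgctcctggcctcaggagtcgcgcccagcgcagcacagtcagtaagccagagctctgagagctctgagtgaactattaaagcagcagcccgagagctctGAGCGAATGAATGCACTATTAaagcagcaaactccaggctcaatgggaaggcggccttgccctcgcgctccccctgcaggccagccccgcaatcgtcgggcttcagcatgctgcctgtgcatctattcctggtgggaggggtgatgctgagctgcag
The motif searched on both strands was AGGNGGC, a short part of the CTCF motif. It was chosen after these windows had been looked at; a longer form had been searched first, with a match among these windows only at the plus-strand position in Hoxd3os1. In the Hoxd3os1 window it matched as AGGGGGC on the plus strand at chr2:74716197-74716203 and as AGGTGGC on the minus strand at chr2:74716170-74716176, and the matches do not overlap. In the Hoxd10 window it matched once, its centre 55 bp from CBS4, in the Gm13286 window once, 41 bp from the summit, and in the Tlr6 window not at all. It was found in 29.3% of all 32817 promoter windows, in 57.7% of the 1675 that hold a reference CTCF site and in 27.8% of the rest, so a match in a window is common.

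At the 4 mutated positions the CTCF peak of WT was gone or nearly so. CBS1 ranked at percentiles 95.4, 86.3 and 83.6 in the 3 WT libraries and at 0 and 9.67 in Del(CBS1-4). CBS2, the second strong position, ranked at 97.2, 94.5 and 63.7 in WT and had no peak in either mutant library. CBS3 ranked lower in WT, at 38.7, 42.4 and 32.7, and CBS4 at 1.28, 26.4 and 8.91, close to the weakest common sites in 1 library; neither had a mutant peak. The groups did not overlap at any of the 4 positions. The 1 mutant peak that still covered CBS1, in Del(CBS1-4) replicate 2 (fold enrichment 3.67), had its summit 282 bp away, in the Hoxd3os1 window.

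RAD21 followed CTCF at 3 of these positions and was absent from the fourth in WT already. At CBS1 the RAD21 percentiles were 97.7, 95.8, 88.7 and 97.4 in WT, among the highest of all common sites, and no mutant library had a peak. At CBS4 they were 34.8, 69.9, 56.2 and 70.9 in WT and 0 in both mutants. At CBS2 they were 75.6, 61.4, 76.8 and 57.7 in WT, and 0 and 4.37 in Del(CBS1-4), where replicate 2 kept a peak of fold enrichment 3.80 with its summit 4 bp from the WT position. At CBS3 none of the 6 RAD21 lists held a peak. For presence or absence, Fisher's exact test (2-sided) gave p = 0.0667 at CBS1 and at CBS4, the smallest value that 4 against 2 libraries allow, and p = 0.333 at CBS2. CTCF and RAD21 thus ranked these positions differently in WT: CBS4 was the weakest of the 4 for CTCF and stood above the middle of the RAD21 ranks in 3 of 4 libraries, while CBS3, stronger for CTCF, had no RAD21 peak.

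**Figure D1:**
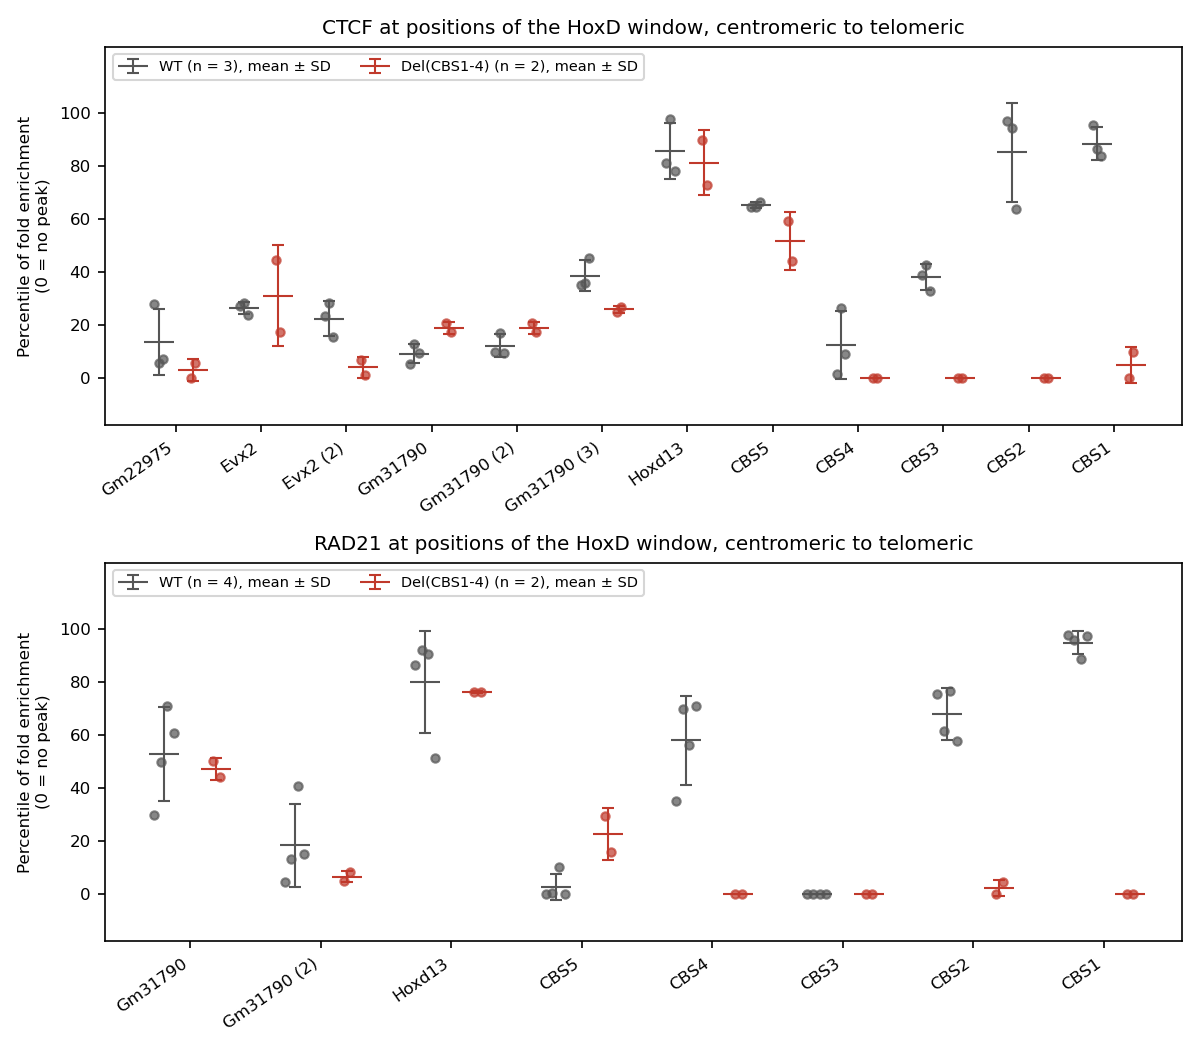
Percentile of fold enrichment (vertical axis, 0 for no peak) at each CTCF position (upper panel) and RAD21 position (lower panel) of the HoxD window, from centromeric to telomeric; points are libraries, horizontal marks means and bars SD, WT in grey and Del(CBS1-4) in red. Mutant points lie at or near 0 at CBS1 to CBS4 for CTCF and at CBS1, CBS2 and CBS4 for RAD21, and the mutant RAD21 points at CBS5 (29.3 and 15.5) lie above the 4 WT points.

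CBS5, the only numbered site left intact, kept its CTCF peak, and both mutant libraries ranked above all 4 WT libraries there for RAD21. RAD21 had no peak there in WT replicates 1 and 4, a peak of fold enrichment 2.41 in replicate 2 and 4.25 in replicate 3, and peaks of 6.07 and 5.01 in the Del(CBS1-4) libraries, with summits 9 and 20 bp from the position of the CTCF summit. As percentiles these were 0, 0.112, 10.0 and 0 in WT (mean 2.53 ± 4.99 SD, n = 4) and 29.3 and 15.5 in Del(CBS1-4) (22.4 ± 9.77 SD, n = 2), so the groups did not overlap. Both mutant libraries stood above all WT libraries at 9.22% of common RAD21 sites. CBS5 is not a common RAD21 site, because WT replicates 1 and 4 lack a peak, and the share for such sites was not computed. The comparison at CBS5, which counts a missing peak as 0, was added after the data were seen. The mean difference of 19.9 gave p = 0.0667 in an exact permutation test (2-sided), the smallest that this design allows, and 0.22 after Benjamini-Hochberg adjustment over the 11 HoxD tests. The CTCF percentiles at the same position were 64.6, 64.6 and 66.5 in WT (65.2 ± 1.10 SD, n = 3) and 59.3 and 44.0 in the mutant (51.6 ± 10.9 SD, n = 2), with no overlap and in the other direction. That difference of -13.6 gave an exact permutation p of 0.1, the smallest possible with 3 against 2, and 0.22 after adjustment; limma, which tests all common sites at once, put the change at -0.35 ± 0.24 (SE) with an adjusted p of 0.731. Without Del(CBS1-4) replicate 1 the RAD21 difference at CBS5 was 13.0, and without replicate 2 the CTCF difference there was -5.92.

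The other alleles share the WT libraries, so their values at CBS5 are set beside these without a test. RAD21 had a peak at CBS5 in both libraries of Del(CBS1-2) (percentiles 21.1 and 9.58) and of Del(CBS1-3) (4.98 and 17.6), in 1 of 3 Del(CBS1) libraries (5.59), and in neither Del(CBS1-5) library nor the Del(CBS2) library. By mean the order was Del(CBS1-4) at 22.4, Del(CBS1-2) at 15.4, Del(CBS1-3) at 11.3, WT at 2.53 and Del(CBS1) at 1.86. The ranges of Del(CBS1-4), Del(CBS1-2) and Del(CBS1-3) overlap one another, as do those of WT, Del(CBS1) and Del(CBS1-3), and the range of Del(CBS1-2) overlaps that of WT as well. CTCF at CBS5 was detected in every library but those of Del(CBS1-5), where CBS5 itself is mutated. Its mean percentile was 65.2 in WT, 60.2 in the Del(CBS1-2) library, 51.6 in Del(CBS1-4), 51.1 in Del(CBS1-3) (35.8 to 66.4), 50.7 in Del(CBS1) (34.3 to 79.2) and 33.0 in the Del(CBS2) library. The range of Del(CBS1-4) lies inside those of Del(CBS1) and Del(CBS1-3).

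**Figure D2:**
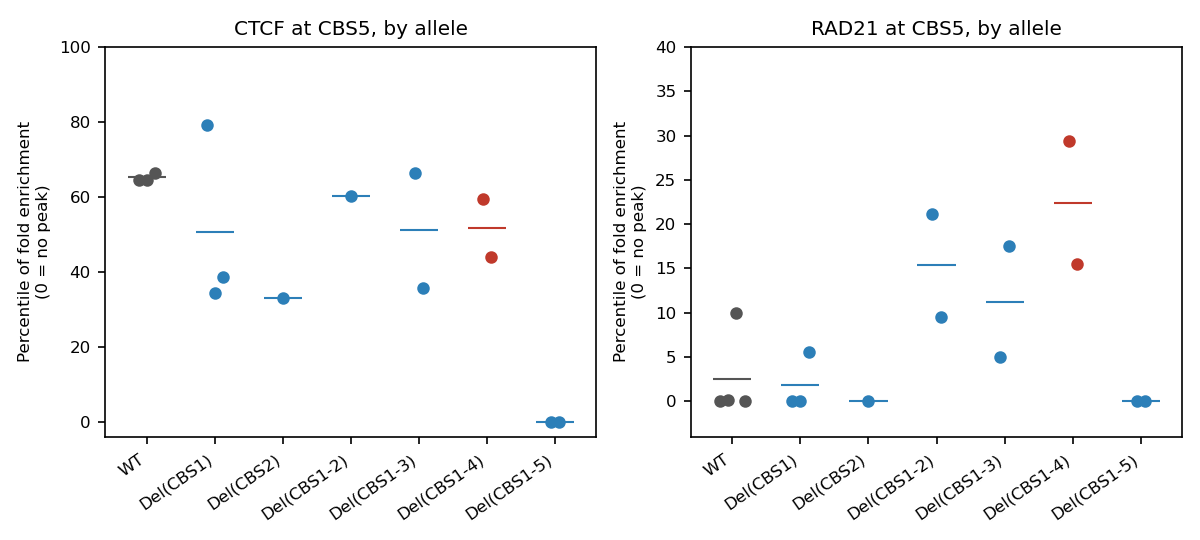
Percentile of fold enrichment at CBS5 (vertical axes, different scales, 0 for no peak) for CTCF (left) and RAD21 (right) by allele; each point is 1 library and each line the mean. The 2 Del(CBS1-4) RAD21 libraries (15.5 and 29.3) stand above all 4 WT libraries, and both Del(CBS1-5) libraries are at 0 for both antibodies.

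Beside CBS1 the mutant libraries had a weaker CTCF peak of their own. The summits in WT lay from 8 bp before to 39 bp after the CBS1 position. In Del(CBS1-4) they lay 340 and 282 bp from it, at chr2:74716273 and chr2:74716215 in the Hoxd3os1 promoter window printed above, with fold enrichments of 4.27 and 3.67 and -log10 q of 6.60 and 5.80. A CTCF summit in that window was found in 10 of 10 libraries whose allele mutates CBS1 and in 0 of 4 with CBS1 intact. In WT the peak centred on CBS1 reached into the window, and whether a weaker summit lies under its flank was not tested. RAD21 had a summit in the window in 2 of the 11 libraries with CBS1 mutated, neither of them Del(CBS1-4), and in 0 of 5 with CBS1 intact. Del(CBS1-4) replicate 1 did have a weak RAD21 peak that overlapped the window (chr2:74716274-74716473, fold enrichment 3.21). The summit of that peak, at chr2:74716413, lay just past the edge of the window, so the count leaves it out. This window was examined after its peaks had been seen.

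**Figure D3:**
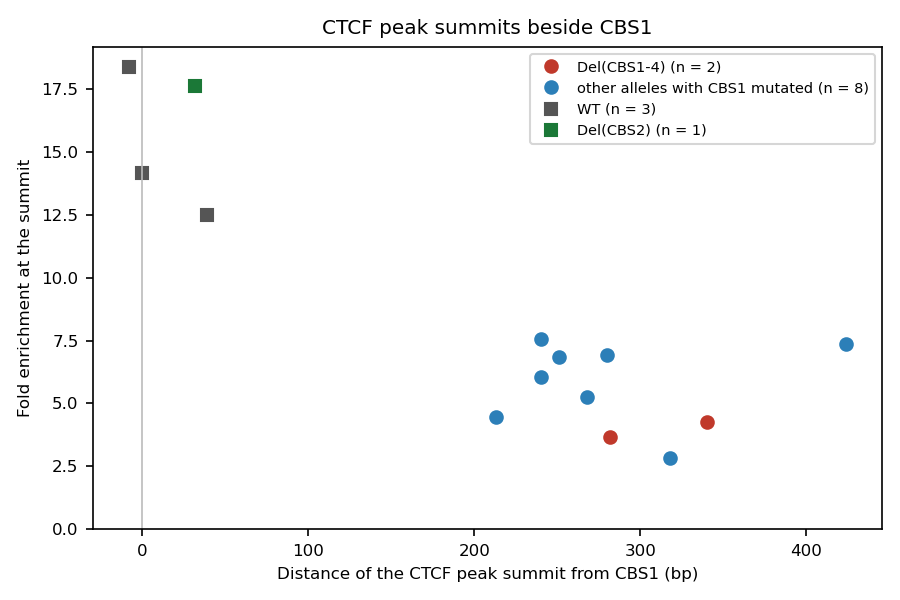
Fold enrichment of the CTCF summit (vertical axis) against its distance from CBS1 in bp (horizontal axis) in 14 libraries: WT and Del(CBS2), where CBS1 is intact, as squares, and the alleles with CBS1 mutated as circles, Del(CBS1-4) in red. The squares lie within 39 bp of CBS1, and all 10 circles lie 213 to 424 bp away at lower fold enrichment.

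On the posterior side of the cluster, the strongest remaining site differed little between the groups. It lies 1493 bp from Hoxd13, the last gene to be switched on, at chr2:74673096, with CTCF percentiles of 81.3, 97.8 and 77.9 in WT and 89.9 and 72.6 in Del(CBS1-4). RAD21 percentiles there were 86.6, 92.0, 90.6 and 51.4 in WT and 76.0 and 76.4 in the mutant; exact permutation gave p = 0.7 for CTCF and 0.933 for RAD21, and the groups overlap for both. Towards Evx2, the CTCF site at chr2:74655823 in the gene itself was the HoxD site with the lowest limma p among those that kept a peak: 23.3, 28.2 and 15.4 in WT and 6.64 and 1.05 in Del(CBS1-4), a change of -1.13 ± 0.36 (SE) with an adjusted p of 0.418 over all common sites. A CTCF site at chr2:74663755 in the transcript Gm31790 ranked at 34.9, 35.6 and 45.2 in WT and lower, at 24.8 and 26.7, in both mutants. The exact p was 0.1 at each of these 2 sites, the smallest possible, and 0.22 adjusted. The 2 Evx2 positions lie in 1 interval, and in WT replicate 2 a single summit gave the value at both. A pair of further positions in Gm31790 share 1 interval too: at chr2:74661718 the percentiles were 5.21, 12.5 and 9.42 in WT, and at chr2:74661969 they were 9.48, 16.9 and 9.42. The mutant libraries had 1 summit each (20.5 and 17.2) for both, 175 and 217 bp from the first position and 76 and 34 bp from the second, so the first compares different summits; at the second exact permutation gave p = 0.2, and 0.367 adjusted. Across the genome both mutant libraries stood above all WT libraries at 12.9% of common CTCF sites and below all of them at 12.7%, so groups that do not overlap were frequent at any position.

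The remaining HoxD sites gave overlapping groups or weak peaks. A second Evx2 site, at chr2:74655517, ranked at 26.9, 28.2 and 23.6 in WT and on both sides of these in the mutants (44.6 and 17.4). The 2 RAD21 sites in Gm31790 overlapped between groups, with 29.5, 49.6, 71.0 and 60.6 in WT against 50.0 and 44.1 at chr2:74661981, and 4.19, 13.0, 40.6 and 15.0 against 4.85 and 7.98 at chr2:74663707. At chr2:74635596, 10848 bp from the small RNA gene Gm22975, CTCF had a peak in all 3 WT libraries (27.7, 5.52 and 7.19) and in 1 mutant library (5.67). The 1 CTCF site of the window that met the rule for a gained site lay in Hoxd3, one of the early, anterior genes, at chr2:74747786: no WT library had a peak there and the mutants had fold enrichments of 2.57 and 3.70. A Del(CBS1-3) and a Del(CBS1-5) library also had a peak at that position, and no RAD21 library did.

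Across the genome, HoxD included, sites were called lost when neither Del(CBS1-4) library had a peak over a reference site, and gained when both had a site that no WT library covered. For CTCF 3770 reference sites (7.91%) were lost and 1158 of 47215 mutant sites (2.45%) gained. For RAD21 79 reference sites (0.394%) were lost and 2048 of 31754 (6.45%) gained. The counts thus leaned to loss for CTCF, whose mutant libraries had the lower enrichment at common sites, and to gain for RAD21, whose mutant lists are longer than 3 of the 4 WT lists or all of them. With equally long lists of top peaks the counts were 2045 lost and 1143 gained for CTCF, and 171 lost and 364 gained for RAD21. With reference sites taken from at least 2 WT libraries 3145 RAD21 sites were lost, beside the same 2048 gained. That setting loosens the rule for loss alone, so its losses can only rise, and it cannot show which way the counts lean. Leaving out 1 library moved them to between 4329 and 8170 (CTCF lost), 1296 and 4778 (CTCF gained), 102 and 579 (RAD21 lost) and 2095 and 8480 (RAD21 gained).

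Loss was concentrated in weak sites. Among CTCF sites whose lowest WT -log10 q was under 5, 37.4% were lost; between 10 and 20 the share was 1.46%, and at 50 or above it was 0.0460%, or 7 of 15233 sites. For RAD21 the shares were 1.68% under 5 and 0.0791%, a single site, at 50 or above. That single site was CBS1. Of the 28 lost CTCF sites with a lowest WT -log10 q of 20 or more, CBS2 was the second strongest (130) and CBS3 the eighth (49.3). By the same measure CBS1 was the strongest RAD21 loss (80.0) and CBS4 the sixth (8.87).

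**Figure D4:**
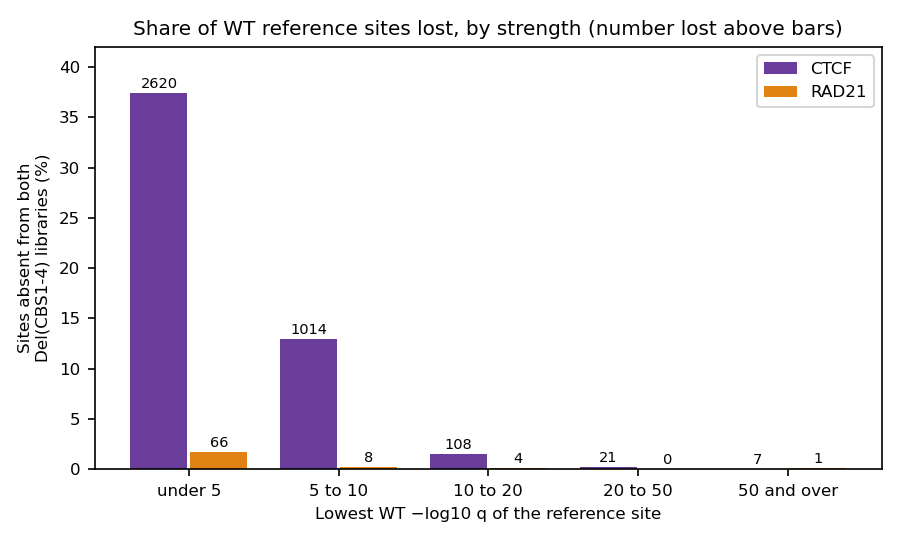
Share of WT reference sites absent from both Del(CBS1-4) libraries (vertical axis, percent) by the lowest -log10 q of the site in WT (horizontal axis), CTCF in purple and RAD21 in orange, with the number of lost sites above each bar. The CTCF share runs from 37.4% in the weakest class to 0.0460% in the strongest.

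The strong losses outside HoxD lay in a few places. The site with the highest lowest -log10 q (201) was at chrY:90799393 in Gm33272, with fold enrichments of 8.45, 8.14 and 8.64 in WT; a second Gm33272 site at chrY:90800748 (108) and one in Mid1-ps1 (55.4) were lost beside it, while another position in Gm33272, at chrY:90813788, was among the gained sites. On chromosome Y before 90 Mb the CTCF lists held 2, 0 and 0 peaks in WT and 0 and 4 in Del(CBS1-4). From 90 Mb on, where these lost sites lie, they held 17, 14 and 23 in WT and 14 and 15 in Del(CBS1-4). The sex of the embryos was not tested. On chromosome 15 the sites near the apolipoprotein L genes Apol7e (chr15:77684152, lowest -log10 q 90.3, fold enrichments 19.4, 15.0 and 20.3), Apol7c (38.9) and Apol7b (22.8) were lost. Tlr6, a toll-like receptor gene, lost a site in its promoter window (chr5:64960146, 84.5, fold enrichments 18.8, 12.2 and 17.9), and Gm13286 lost one at chr4:88757747 (85.7), 5856 bp from another lost site in Gm13284 (43.7). Except for CBS3, found in 5 of 9 CTCF libraries of the other alleles, and CBS2, in 6, the 12 strongest lost CTCF sites were present in 7 to 9 of those 9.

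CTCF and RAD21 were lost together at 7 pairs of sites, which hold 6 RAD21 sites (7.59% of the lost RAD21 sites) and 0.186% of the lost CTCF ones. These were CBS4 in Hoxd10, Skint11 (chr4:114173153), a position 852 bp from Ccdc194 (chr8:71519266), Apol7c (chr15:77523421), Apol7e (chr15:77684152) and 2 CTCF positions that share 1 RAD21 site near Gm14504 on chromosome X. CBS1 is not among them because of the peak whose flank covers it in 1 mutant CTCF library. Of all 3770 lost CTCF sites 32 (0.849%) had RAD21 in all 4 WT libraries, against 49.6% of the common CTCF sites. These sets were not compared at like strength. The lost sites had a median lowest WT -log10 q of 3.91, and the common sites had medians of 39.9 to 82.7 in the WT libraries. RAD21 was still present in both mutant libraries at 18 of these 32 and in neither at 6; at common CTCF sites with RAD21 in WT it was present in both at 98.5%. The other strong RAD21 losses lay in Adcy8, an adenylate cyclase gene (chr15:64764774, fold enrichments 8.99, 7.38, 9.14 and 12.2 in WT), and 23198 bp from Hyi (chr4:118336801, 8.96, 6.60, 6.77 and 7.83).

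Ordered by the lower -log10 q of both mutant libraries, 5 of the 6 strongest gained CTCF sites lay in Igh, the immunoglobulin heavy chain locus, whose V segments carry many CTCF sites. They were led by chr12:114048124 with fold enrichments of 12.4 and 9.64 and no WT peak, and chr12:113625593 in Ighv5-6 with 8.05 and 9.27. Those at chr12:113948143 and chr12:113948325 are not independent. They share the same summit in Del(CBS1-4) replicate 1 (fold enrichment 8.37) and differ only in replicate 2 (7.39 and 7.77). The sixth was in Mical3, which encodes a flavoprotein monooxygenase that acts on actin (chr6:120971255, 8.80 and 4.28). Other gains were high in 1 mutant library and low in the other, such as those in Tmem135 (13.6 and 3.76) and near Adpgk (9.54 and 3.73). The Igh sites were also found in 2 to 5 of the 9 CTCF libraries of other alleles. RAD21 gained a site in Igh as well (chr12:113981812, 7.35 and 9.84). The strongest RAD21 gain was 15731 bp from B020018J22Rik (chr12:112451069, 7.88 and 6.45), followed by sites in Gse1 (6.57 and 4.38), near Vps52 (6.92 and 5.11), in Evi5 (6.41 and 5.81) and in Micall1 (4.59 and 4.78). Promoter windows held 11.0% of the gained RAD21 sites and 4.96% of all RAD21 sites of the mutant, and also 12.7% of the lost RAD21 sites (10 of 79), beside 3.27% of the RAD21 reference sites. For CTCF they held 0.950% of the gained and 3.07% of all mutant sites.

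Within 50 kb of the alpha and beta globin genes, 8 of the 24 mutant RAD21 sites (33.3%) were gained, beside 6.45% of all; both the genes and the distance were chosen after these gains had been seen, so no test is given. CTCF lost 1 site there, in Nprl3, and gained 1, in Luc7l (3.23 and 2.88). The RAD21 gains nearest a globin gene lay 66 bp from Hbq1a (fold enrichments 3.76 and 4.02), 169 bp from Hbb-bh2 (5.41 and 4.12) and 329 bp from Hbb-bh1 (4.29 and 3.88). Next came those 422 bp from Hba-x, the embryonic alpha-like gene (3.72 and 7.77), and 586 bp from Hbb-y, an embryonic beta-like globin gene (5.71 and 4.68). No WT RAD21 library had a peak at any of them, the site near Hbq1a was found in 7 of 10 RAD21 libraries of the other alleles and the rest in 0 to 3, and the share of blood cells in each trunk was not tested.

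RAD21 peaks of the mutant lay at CTCF sites about as often as in WT. The share of RAD21 intervals within 150 bp of a reference CTCF site was 95.4%, 77.6%, 84.6% and 80.8% in WT and 81.7% and 75.0% in Del(CBS1-4), with overlapping groups (difference -6.25 percentage points, exact permutation p = 0.4, 2-sided). The WT library with the highest share was also the one with the shortest list. With lists cut to the same number of top peaks the difference was 0.134.

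A limma fit over the common sites asked which of them ranked differently. It compared normal scores of the fold ranks, so that a change of 1 is 1 SD of the ranks, and called a site at a Benjamini-Hochberg adjusted p under 0.05. For CTCF 3 of 39095 (0.00767%) were called: the mutant ranked higher at 1 (0.00256%) and lower at 2 (0.00512%). An unadjusted p under 0.05 was reached at 3251 (8.32%). For RAD21 it called 13 of 19586 (0.0664%), with the mutant higher at 7 (0.0357%) and lower at 6 (0.0306%), and 1842 (9.4%) had an unadjusted p under 0.05. None of these lies in HoxD, and the nearest, in Scn9a, is on chromosome 2 at 66520206. The fit held only 7 CTCF and 3 RAD21 sites of HoxD. CBS1 to CBS4 for both antibodies, and CBS5 for RAD21, are not common sites and so could not be called.

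The called CTCF sites lay in or near 3 genes. Limch1, which encodes an activator of non-muscle myosin, had a site at chr5:66997492 among the weakest in WT (percentiles 0.0882, 0.127 and 1.85) and among the strongest in Del(CBS1-4) (82.5 and 88.1). Its change was 3.80 ± 0.38 (SE) with an adjusted p of 0.00025. Pacs2, which encodes a protein of membrane traffic, had a site at chr12:113045542 that ranked at 64.1, 54.4 and 54.3 in WT and at 2.86 and 4.27 in the mutant (change -2.0 ± 0.30, adjusted p = 0.0286). The site 7120 bp from the pseudogene Ccnd3-ps, at chr4:139337272, went from 72.9, 78.7 and 62.2 to 6.61 and 12.8 (change -1.89 ± 0.27, adjusted p = 0.0222), and lies 6531 bp from a strong lost CTCF site near Akr7a5. At Pacs2 RAD21 was lower as well: 24.6, 35.5, 38.5 and 55.5 in WT and 1.00 and 0.968 in Del(CBS1-4) (change -2.03 ± 0.37, adjusted p = 0.0497). No WT library overlapped the mutant ones at any of these 4 sites. At each of the 3 CTCF sites at least 1 library had no summit within 100 bp of the position. Their changes may therefore compare different summits. With all alleles in 1 limma fit the Limch1 site was not called (adjusted p = 0.566).

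Among the other RAD21 calls, the highest changes were at low-ranked WT sites. The site 13461 bp from Sorl1, a sorting receptor gene, ranked at 37.5, 3.82, 7.70 and 3.90 in WT and at 92.4 and 76.4 in the mutant (change 2.40 ± 0.39, adjusted p = 0.0231). A site in Gm33725 went from 6.12, 14.5, 18.7 and 13.2 to 76.6 and 81.7 (1.97 ± 0.32, adjusted p = 0.0231). A site in the span of Scn9a, a sodium channel gene, went from 6.75, 8.60, 6.33 and 22.5 to 71.6 and 68.9 (1.82 ± 0.35, adjusted p = 0.0497). The remaining higher calls, at Kif26b, Gm4954, Capn3 and Gm46595, were strong in both groups, with WT means of 65.6 to 84.8 and mutant means of 97.3 to 99.3. Lower calls were at Gm28068 (WT mean 76.7, mutant 17.0), Bub1b, a spindle checkpoint kinase gene (59.8 and 10.1), 1700069L16Rik (93.4 and 53.9), Luzp1 (82.2 and 33.1) and Pi15 (84.7 and 36.2). The RAD21 calls rest on both mutant libraries: with either Del(CBS1-4) replicate left out none of the 13 was called. The CTCF count without 1 library ran from 3 to 69, but of the 3 sites Limch1 alone was called under every such omission. Pacs2 was not called without WT replicate 3 (adjusted p = 0.0827 in limma), Del(CBS1-4) replicate 1 (0.0758) or replicate 2 (0.0577), and the site near Ccnd3-ps not without WT replicate 2 (0.05004) or Del(CBS1-4) replicate 1 (0.0995).

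**Figure D5:**
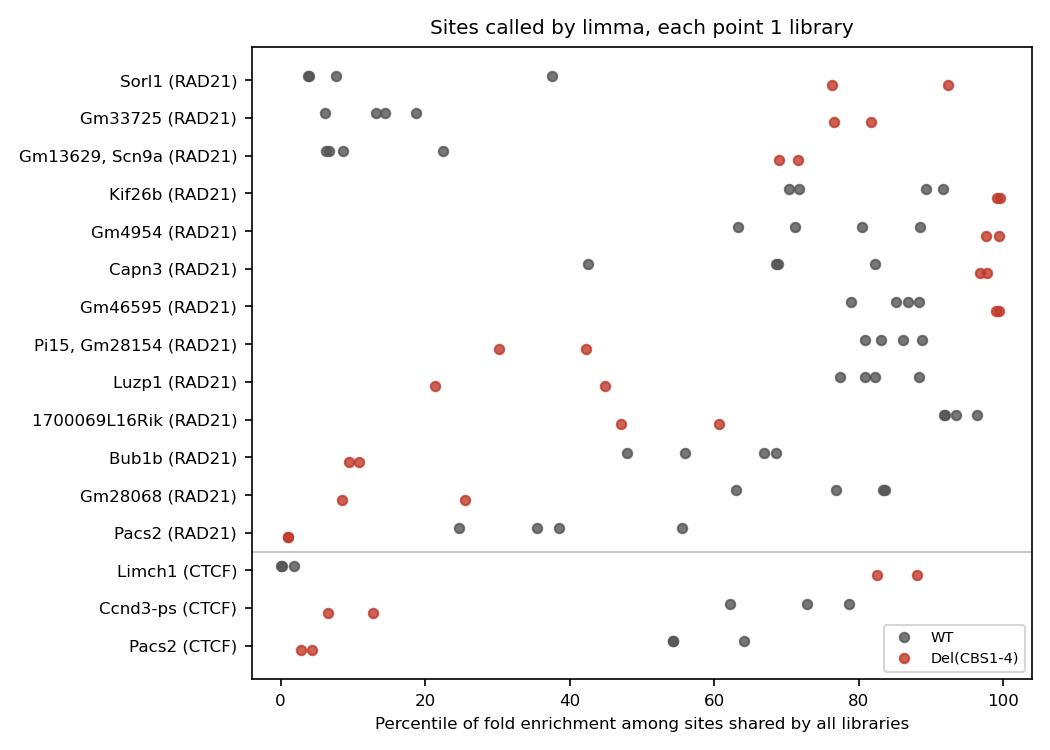
Percentile of fold enrichment (horizontal axis) at the 16 sites called by limma, each point 1 library, WT in grey and Del(CBS1-4) in red; RAD21 sites are above the line and CTCF sites below. Red and grey points do not overlap in any row, and the CTCF site in Limch1 spans the widest distance, from at most 1.85 in WT to at least 82.5.

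Several strong changes lay near one another. Counting lost sites with a lowest -log10 q of at least 20, gained sites with at least 10 and the limma calls, 11 fell in a stretch of 1597055 bp on chromosome 12, from the RAD21 gain near B020018J22Rik over both Pacs2 sites to the Igh gains. Among these, the CTCF gains at chr12:113948143 and chr12:113948325 share the same summit in Del(CBS1-4) replicate 1. The same holds for those at chr12:113701937 and chr12:113702197, so the count includes neighbouring positions of the same peak. On chromosome 15 the lower RAD21 site in Gm28068 lies 155984 bp from a lost CTCF site near Ly6g, and the Apol7 losses lie in a stretch of 1676419 bp with RAD21 gains near Csf2rb and in Micall1. Of the 28 CTCF losses so counted 15 had no other such change within 1 Mb, as had 11 of 19 CTCF gains and 11 of 16 RAD21 gains.

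The regulatory landscapes that flank HoxD held no called site. Telomeric to the cluster, from Hoxd1 as far as Hnrnpa3, where enhancers active early in the trunk and proximal limb lie, 15 of 17 common CTCF sites ranked higher in Del(CBS1-4), with a median change of 0.23, against 19362 of 39095 and -0.0038 over all common sites. By ranks of -log10 p 12 of the 17 were higher (median 0.14). Only 2 of the 17 stood above all WT libraries. On the centromeric side, between Atp5g3 and Evx2, which holds digit and genital enhancers, 6 of 10 were higher (median 0.036). For RAD21 the telomeric and centromeric counts were 5 of 8 (median 0.30) and 3 of 4 (median 0.12), beside 9676 of 19586 over all sites (median -0.0064). By ranks of -log10 p these medians were 0.11 and 0.011, with 5 of 8 and 2 of 4 higher. The gene lists of both sides, counted for sites within 5 kb of a gene, hold partly other sites. In them 10 of 23 telomeric CTCF sites (median -0.076) and 6 of 21 centromeric ones (median -0.13) were higher. For RAD21 these counts were 5 of 9 (median 0.17) and 1 of 9 (median -0.22). Within 5 Mb of the cluster 26 of 265 CTCF reference sites were lost (9.81%, beside 7.91% of all) and 4 of 243 mutant sites gained (1.65%, beside 2.45%). The HoxD window itself held 12 of these reference sites and 3 of the lost ones, the mutated CBS2, CBS3 and CBS4. It also held 1 of the gained sites. For RAD21 2 of 114 were lost within 5 Mb, both in HoxD, and 10 of 156 gained (6.41%, beside 6.45%). The lost CTCF sites in the telomeric side nearest to HoxD lay in 2600014E21Rik (chr2:75208405, WT fold enrichments 5.48, 4.20 and 6.43, and chr2:75188981), where a CTCF site at chr2:75151437 was gained (3.33 and 2.55).

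In 10 gene lists of the trunk, counted for sites within 5 kb, there was no called site for either antibody. The other Hox clusters had the list median farthest from 0 for CTCF: 13 of 17 sites ranked lower and 4 higher (median -0.59), 7 of 17 below all WT libraries, beside 12.7% of all common sites. The median was -0.22 by ranks of -log10 p, -0.26 on the centred log2 scale and -0.20 within 50 kb. Examples are a site 1288 bp from Hoxa9 (99.0, 93.9 and 92.1 in WT, 83.6 and 76.3 in Del(CBS1-4), change -0.91 ± 0.31, adjusted p = 0.446) and one in Hoxb5os (89.5, 93.0 and 79.7 against 63.8 and 57.5, -0.92 ± 0.27, adjusted p = 0.388). RAD21 at these clusters had a median of -0.033, with 4 of 9 sites higher, and turned to 0.029 by ranks of -log10 p.

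In the other 8 lists, each site counted once, both mutant libraries stood above all WT libraries at 27 of 210 CTCF sites (12.9%, the share over all common sites also being 12.9%) and below at 40 (19.05%, beside 12.7%). For RAD21 they stood above at 6 of 100 (6%, beside 9.22%) and below at 11 (11.0%, beside 10.7%). The sites named next are examples of these, and all had a limma adjusted p above 0.05. Sp3, a transcription factor gene centromeric to HoxD, ranked at 49.2, 57.4 and 38.9 in WT and at 3.24 and 12.5 in Del(CBS1-4) for CTCF (change -1.46 ± 0.32, adjusted p = 0.181), and RAD21 gained a weak site in its promoter window (2.69 and 2.43). Chrna1, a muscle acetylcholine receptor gene on the same side, had CTCF at 5.87, 0.101 and 1.56 and at 18.5 and 17.5. Lmbr1, whose intron holds the limb enhancer of Shh, had a site that ranked higher for both antibodies: CTCF at 21.5, 14.9 and 23.5 against 57.8 and 53.9 (change 1.00 ± 0.28, adjusted p = 0.378), and RAD21 at 17.4, 23.1, 12.9 and 1.47 against 36.4 and 38.1 (0.92 ± 0.41, adjusted p = 0.497). The imprinted H19, read from the maternal chromosome, had a CTCF site 2230 bp away at 3.13, 5.42 and 2.12 against 27.4 and 22.4 (1.15 ± 0.35, adjusted p = 0.392). Among trunk regulators, Tbx18, a somite factor, ranked lower for CTCF (19.6, 41.0 and 33.2 against 1.73 and 9.31), and Pax6, a neural tube factor, did too (42.3, 46.7 and 54.7 against 13.1 and 19.8). Hes7, a gene of the segmentation clock, was lower for RAD21 (57.5, 28.5, 43.8 and 11.0 against 6.02 and 5.75). Stag2, a cohesin subunit gene, was lower for CTCF (96.7, 93.3 and 94.7 against 77.7 and 63.9) and Nipbl, the cohesin loader gene, higher (63.5, 75.6 and 88.5 against 94.6 and 91.8).

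Outside the HoxD list, 23 of 268 CTCF reference sites at the listed genes were lost (8.58%, beside 7.91% of all) and 5 of 270 mutant sites gained (1.85%, beside 2.45%). For RAD21 0 of 113 were lost and 11 of 181 gained (6.08%, beside 6.45%). The strongest of these CTCF losses was in Prrx1, a limb mesenchyme factor (chr1:163306171, WT fold enrichments 7.67, 6.50 and 7.65), and others lay in Tal1 and Runx1, blood factors, Gata4, a heart and gut factor, Rian, in the imprinted Dlk1 domain, and beside Hand2. The RAD21 gains include, besides those at the globin genes and Sp3, a site in Myog, a muscle factor (3.24 and 4.08), one beside Meox1, a somite factor (3.09 and 3.75), and one in Airn, the imprinted antisense transcript of Igf2r (3.40 and 3.11), where CTCF gained a site at another position (2.94 and 11.0). The other 5 lay in Nfe2l2, on the telomeric side of HoxD (3.56 and 2.93), in Sox1ot beside the neural factor Sox1 (6.73 and 2.76), in the imprinted Impact (3.07 and 5.10) and Plagl1 (2.81 and 3.17), and beside Kif22 (2.33 and 2.47).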

How the data were processed

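Peaks were called with MACS2 2.1.1.20160309 on mm10, 1 list per library, per the submitters' processing notes, which also name Bowtie2 and cutadapt; options and the control used are not given in the sources used here. Each deposited peak has a ratio (fold enrichment of the summit), a -log10 p, a -log10 q and a display score, but no read counts; depth is unknown, and intervals that need it are not given. Here WT summits within 150 bp were linked into sites, a library detected a site when a peak covered its median summit, and fold values were used only as ranks within a library, except for the centred log2 alternative. These 11 libraries were compared by rank with limma (version 3.58.1, R version 4.3.3), robust and with trend, after a test on simulated data. HoxD percentiles were compared by exact permutation. Genes, spans and promoter windows are RefSeq on GRCm38.p6; 2 list genes (Nespas and Znf143) were not matched. Positions are counted from 1.

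The members, the gene lists, the 5 kb rule and the rule for named sites (all HoxD sites, the 6 strongest lost and gained, the 10 largest called, 2 per list, and lost or gained sites in lists or within 5 Mb) were chosen with earlier results of these data known; genes added beyond that rule were chosen after their values were seen. Alternatives were other overlap rules, a q threshold, equal list lengths, ranks of -log10 p, centred log2 fold values, no trend or robust fitting, the weakest 25% left out, all alleles in 1 fit, replicate block, 50 kb and leaving out each library.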

Additional observations from a re-analysis of the deposited data

Results flagged for a closer look

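At 4 of the 40 RAD21 measures with 4 WT libraries, 1 library stood apart from the other 3 by Dixon's test; chance gives about 1 in 20. At the site near Hoxd13 1 WT library ranked at percentile 51.4 and the other 3 at 86.6 to 92.0. At CBS5 1 WT library ranked at 10.0 and the others at 0 to 0.112; without it the difference between the groups was 22.4. At the Scn9a site 1 WT library ranked at 22.5 and the others at 6.33 to 8.60, and at the site near Sorl1 1 ranked at 37.5 and the others at 3.82 to 7.70; both Del(CBS1-4) libraries lay above all 4 at these last 2 sites.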

How the results depend on the processing

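Of CBS1 to CBS4, 3 were lost for CTCF and 2 for RAD21, with 3 to 4 and 2 to 3 when 1 library was left out, and 1 for RAD21 with peaks of -log10 q of at least 10. The CTCF count is a description, because CTCF detection placed these positions. Genome-wide counts moved as well. CTCF losses (3770) were 2045 with equal list lengths and 11048 for sites in at least 2 WT libraries (4329 to 8170 without 1 library); CTCF gains (1158) were 1934 with summits within 100 bp, 394 with any peak base within 250 bp and 52 at -log10 q of at least 10 (1296 to 4778). RAD21 losses (79) were 192 by summit, 33 by q, 171 with equal lengths and 3145 for at least 2 WT libraries (102 to 579); RAD21 gains (2048) were 205 by q and 364 with equal lengths (2095 to 8480). The limma calls for CTCF (3) were 55 by ranks of -log10 p, 1 without trend and robust fitting together, 0 with the weakest 25% left out, 0 with all alleles in 1 fit, 0 by summit (where none of the 3 sites could be tested) and 3 to 69 without 1 library; for RAD21 (13) they were 0, 1 and 0 under the same settings (no trend or robust fitting, weakest sites, all alleles) and 0 to 31 without 1 library. In the limma fits with 0 calls, 2187 to 2959 CTCF and 975 to 1732 RAD21 sites had an unadjusted p under 0.05.

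With the replicate number as a block limma called 23 CTCF and 35 RAD21 sites. Same-numbered libraries shared only a number: their deviations from the group means correlated at 0.032 and -0.012 for CTCF and 0.015 and 0.0031 for RAD21. The RAD21 share at CTCF sites turned from -6.25 to 0.134 with equal numbers of peaks. Leaving out 1 library turned the sign at 4 HoxD sites with small differences, which then ran from -8.86 to 18.4 for CTCF at Evx2 (chr2:74655517), from -13.0 to 4.26 for CTCF near Hoxd13 (1.67 under another omission), from -13.4 to 0.482 for RAD21 in Gm31790 (chr2:74661981) and from -13.5 to 0.00425 for RAD21 near Hoxd13. None of the 16 limma calls changed sign under any setting that could test it. Leaving out 1 library could not turn a sign, because the groups did not overlap at any of the 16. Of their recomputed values 82 stayed past the threshold and 108 did not, and the causes were not tested. With 2 mutant libraries no exact test at 1 site could pass 0.05.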
